A study of Mus musculus with 8 samples.

Results

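The comparison of 1 day of trehalose with water in mouse brain rests on 5 of the 8 arrays of the series, 3 from mice given trehalose for 1 day and 2 from mice given water and sampled at day 0. Every annotated probe was described that exceeded the blank spots' mean by more than 2 SD on at least 2 of the 8 arrays, which left 21583 of 23473 probes. Of the 21583 probes, 19122 carried 1 gene symbol each, for 17863 symbols, and 2461 had no listed gene and are given only as counts.

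All mice were male C57Bl/6J, 9 weeks old, housed 3 to a cage, fasted for 6 h, anesthetized and perfused through the heart with heparin in buffer before the brain was removed. The agent was water in the control group and trehalose in the treated group, and the dose and vehicle of trehalose are not given in the sources used here. The labels place the tissue in the cortex and neocortex, and the series text speaks of the frozen left hemisphere. No water mouse was sampled after 1 day, so the effect of trehalose and that of the sampling day cannot be told apart, and nothing says which mice shared a cage.

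Trehalose is a disaccharide of glucose that the intestinal brush-border enzyme trehalase splits, so that most of a swallowed dose reaches the blood as glucose. It is studied in the brain because it activates autophagy, the delivery of cell contents to lysosomes, in cultured cells and disease models, partly through TFEB, a transcription factor of lysosomal genes. It also acts as a chemical chaperone that stabilises folded proteins. The gene lists described here follow those roles, together with lists of the cell types and brain regions that a hemisphere holds.

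The values are log2 spot intensities after background correction and quantile normalization, and a difference of 1 is a 2-fold change in intensity. On these 5 arrays 86.3% to 91.8% of the probes were brighter than the limit, and the median probe spot was 2.48 to 2.85 times the mean blank spot. Ranked among all probes, pan-neuronal Snap25 lay on average at percentile 99.5, astrocytic Aldoc at 99.9 and myelin Mbp at 99.6. The cortical markers Tbr1 and Slc17a7 lay at percentiles 79.3 and 91.8, while cortical Cux2 lay at 32.9 and astrocytic Gfap at 36.0. Some markers of other regions were high as well. Penk of the striatum lay at percentile 98.5 and Avp and Hcrt of the hypothalamus at 92.3 and 89.5. Ttr of the choroid plexus lay at 99.97. Several others of these regions ranked lower. Drd1 and Drd2 lay at 67.5 and 62.0, and Trh and Pomc at 59.7 and 60.1. Kl, Folr1 and Clic6 of the choroid plexus lay at 58.1, 63.7 and 65.8. The ranks of Avp, Hcrt and Ttr point to tissue beyond the cortex, but levels of different probes are not strictly comparable. Muscle Myh4 and Ckm lay at percentiles 16.3 and 26.6, and the only probe of thalamic Tcf7l2 was above the blank limit on 0 of the 5 arrays.

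3 of the 5 arrays stood apart in particular genes. The array of 1-day mouse 2 had the lowest level of each of the 17 striatal probes. The array of control 1 was high in transcripts of the liver. The array of control 2 stood alone in Sult4a1, a brain sulfotransferase, and in Ifitm3, an interferon-induced membrane protein: Sult4a1 read 9.69 in control 1, 7.74 in control 2 and 9.70, 9.78 and 9.68 in the treated mice, and Ifitm3 read 9.06 and 7.64 in the controls and 8.98, 8.87 and 8.99 in the treated mice. Without control 1, which leaves 1 control array, the log2 differences of Sult4a1 and Ifitm3 were 1.98 and 1.31. Without control 2 they were 0.026 and -0.11. With both controls the groups overlapped at both genes.

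The most separated genes of the comparison were Xlr3c and Xlr3a, near-identical members of a multicopy family on the X chromosome. Proteins of the family are related to SYCP3 of the meiotic chromosome axis, and some family members are known for imprinted expression in the mouse brain. The 250 bases before 1 start site of each are shown because the pair was higher together, and they come from RefSeq on the GRCm38.p6 build, minus strand, at chrX:73097096-73097345 for Xlr3a and chrX:73265391-73265640 for Xlr3c. The window of Xlr3a lies before the gene, which the gene table places at 73086293 to 73097095. The gene table places Xlr3c at 73254538 to 73265576, so the start site used for its window lies inside the gene and the window overlaps it. Capitals mark the longest run the windows share, of 58 bases.
Xlr3a: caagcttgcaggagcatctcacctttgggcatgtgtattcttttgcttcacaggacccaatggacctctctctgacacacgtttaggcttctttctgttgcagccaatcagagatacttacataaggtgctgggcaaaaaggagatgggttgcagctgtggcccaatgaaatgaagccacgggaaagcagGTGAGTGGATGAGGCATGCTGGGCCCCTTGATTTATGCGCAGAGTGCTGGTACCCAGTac
Xlr3c: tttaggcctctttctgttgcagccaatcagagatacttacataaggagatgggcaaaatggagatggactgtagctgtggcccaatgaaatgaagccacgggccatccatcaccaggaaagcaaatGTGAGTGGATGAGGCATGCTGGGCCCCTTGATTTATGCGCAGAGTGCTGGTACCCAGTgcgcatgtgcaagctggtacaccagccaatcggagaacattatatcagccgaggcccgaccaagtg
In the best local alignment of the 2 windows 159 of 167 bases, 95.2%, were the same. The motif CCAAT, read on both strands, so as CCAAT or ATTGG, occurred 3 times in each window. Of 32851 mouse promoter windows of this length, 33.8% held it at least once and 2.79% at least 3 times. Probe sequences were not used here, so which copy each probe reads is unknown, and the values of these genes are uncertain between copies.

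Xlr3c read 6.72 and 6.40 in the 2 controls and 7.89, 7.74 and 7.83 in the 3 treated mice. The treated mice lay close together and above both controls by more than the controls differed from each other. The difference was 1.26 ± 0.18 (SE) on the log2 scale, 2.40-fold, with an unadjusted p of 0.000151 by limma and an adjusted p of 1.00. Xlr3a read 6.54 and 6.13 in the controls and 7.41, 7.22 and 7.15 in the treated mice, again without overlap, for a difference of 0.92 ± 0.20 (SE). Leaving out any 1 of the 5 arrays gave 1.10 to 1.42 for Xlr3c and 0.72 to 1.13 for Xlr3a. In the 16 other settings that kept these 5 arrays, Xlr3c ran from 1.0 to 2.1 and Xlr3a from 0.4 to 2.0. The family has 7 genes on the array, of which 5 genes with 6 probes were tested. All 6 probes were higher, against 49.7% of all tested probes, and Xlr4c was the third with an unadjusted p under 0.05, at 6.21 and 6.24 in the controls and 6.41, 6.40 and 6.47 in the treated mice. Xlr5c differed by 0.02 and the 2 probes of Xlr4b by 0.05 and 0.07. The sign of Xlr5c changed in 5 of the 21 other settings, with -0.56 in the authors' processed table. After 10 days, against the same controls, Xlr3c read 7.37, 7.58 and 8.05 and Xlr3a 6.94, 6.94 and 7.53.

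**Figure D1:**
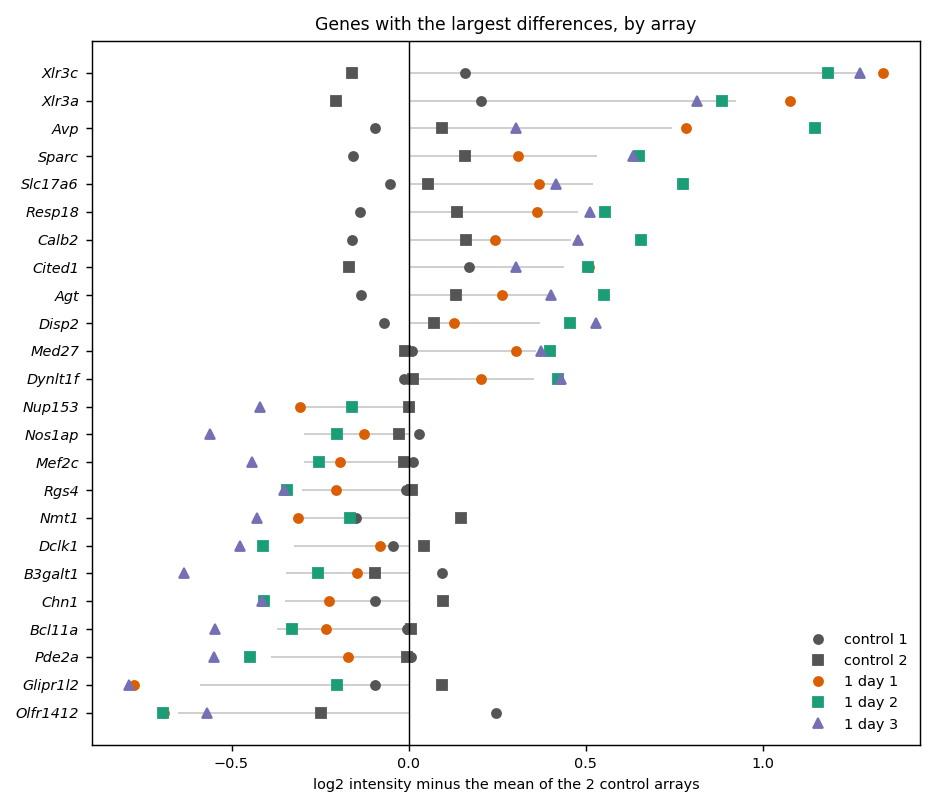
Each row is a gene and each point 1 array, placed at its log2 intensity minus the mean of the 2 control arrays, and the grey bar ends at the log2 difference. The genes are the 12 higher and 12 lower ones with the largest differences among those with unadjusted p under 0.05 and no overlap, and the points of Xlr3c from treated mice stand farthest from its controls.

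Across all genes the groups were close. Of the 21583 probes 0.0% passed an adjusted p of 0.05 in limma with Benjamini-Hochberg adjustment, with 1.00 as the lowest adjusted value. Unadjusted, limma's p was under 0.05 at 787 probes, 3.65% of those tested, 437 of them higher and 350 lower after 1 day (2.02% and 1.62% of the probes tested). With median scaling of the arrays in place of quantile normalization the split was 520 higher and 150 lower. In the authors' processed table it was 85 and 408, and with only the 5 compared arrays in the fit 498 and 516. The balance of directions thus depends on the scaling and on the arrays that set the variance. At 18.2% of the probes the 3 treated arrays all lay on one side of both controls, 8.97% higher and 9.19% lower. Each count of list members given here stands against these shares of all probes, which were not matched for brightness. The quartiles of the log2 differences were -0.04 and 0.04, and 95% of them lay between -0.16 and 0.16. Only 19 probes, 0.088%, differed by 1.5-fold or more. The median 95% interval reached 0.13 to each side, and 98.6% of the intervals lay within 0.58 of 0, the log2 of 1.5-fold. If the 1-sided p is doubled, the smallest p that an exact permutation test of 3 arrays against 2 can give is 0.2. Of the 5396 dimmest probes 16, 0.30%, had an unadjusted p under 0.05, and of the 5396 brightest 425, 7.88%. For lists of bright probes the shares of all probes at that threshold are therefore a low yardstick. The p-values measure the spread between these mice only. Of the named probes with an unadjusted p under 0.05, 98 in all with the closing observations, 72 kept their direction under each of the 21 other settings tried. The other 26 turned in 1 setting, where the local background column of the scanner was used, among them Slc17a6, Nnat on 1 probe, Scd2, Spcs1 and Mmp17. Many of the settings could not turn a direction. Changes of filter or variance model leave the difference of a probe as it was. Leaving out 1 array cannot turn a probe whose groups do not overlap.

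**Figure D2:**
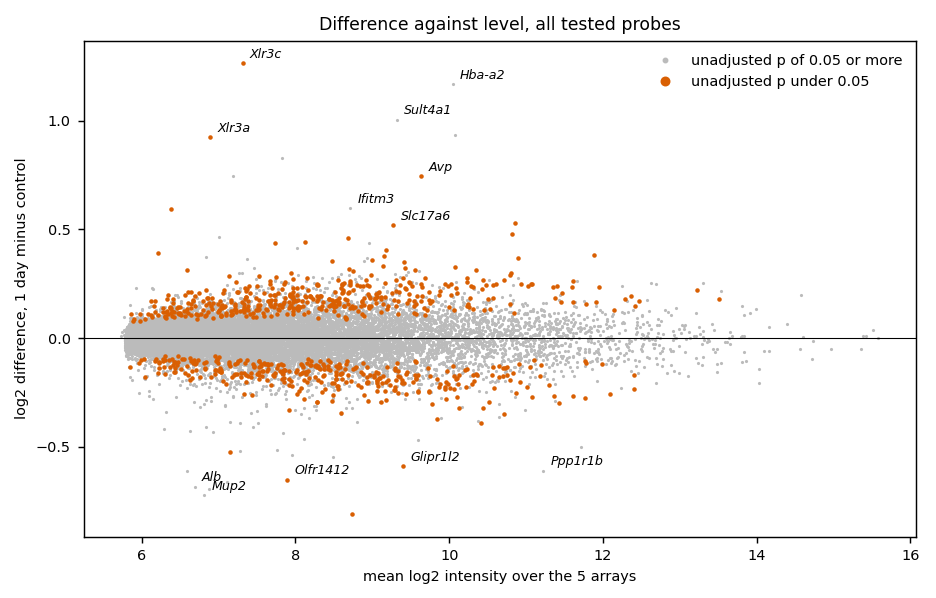
Each point is 1 of the 21583 tested probes, with the mean log2 intensity of the 5 arrays on the horizontal axis and the log2 difference, 1 day minus control, on the vertical axis. Orange points have an unadjusted p under 0.05, and large differences in grey, such as Hba-a2 at 1.17 and Sult4a1 at 1.01, come with groups that overlap.

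Avp encodes vasopressin, the hormone of water retention made in magnocellular neurons. It read 9.10 and 9.29 in the controls and 9.97, 10.34 and 9.49 in the treated mice, a difference of 0.74 ± 0.22 (SE) that kept at least 0.54 when any 1 array was left out. Oxt, the oxytocin gene of the neighbouring neurons, read 8.73 and 8.68 against 9.12, 9.57 and 8.54. The groups overlapped at Oxt because 1-day mouse 3 lay below both controls, and the same mouse had the lowest Avp of the treated group. Without mouse 2 the difference of Oxt went from 0.37 to 0.12. After 10 days Avp read 9.85, 9.63 and 9.49, against the same controls.

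Resp18, a protein of the secretory pathway of neuroendocrine cells, read 10.40 and 10.67 in the controls and 10.90, 11.09 and 11.05 in the treated mice, a difference of 0.48 ± 0.09 (SE). Cited1, a transcriptional coactivator, read 7.64 and 7.30 against 7.98, 7.97 and 7.77. Agt, angiotensinogen, which astrocytes make in the brain, read 8.80 and 9.06 against 9.19, 9.48 and 9.33. At all 3 genes the lowest treated array lay above the highest control. Of the 12 probes of hypothalamic neuropeptides 8 were higher, with a median difference of 0.05 against 0.00 over all probes, and 1 of them, Avp, had an unadjusted p under 0.05. The median was 0.0092 without 1-day mouse 1 and -0.06 with the local background column. Pomc, the precursor of melanocortins, differed by 0.24 and Trh, thyrotropin-releasing hormone, by 0.21, while Npy, Crh and Sst differed by -0.12, -0.12 and -0.17. A further list of 14 hypothalamic genes, drawn up after values had been seen and therefore no support of its own, had 14 of 16 probes higher, with a median of 0.07 that was -0.0021 with the local background column. In it the imprinted gene Nnat read 7.53 and 7.50 against 7.91, 7.81 and 7.61 on 1 of its probes and Baiap3, of dense-core vesicle release, differed by 0.24.

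Thalamic genes were higher in 16 of 20 probes, with a median difference of 0.11. Slc17a6, the vesicular glutamate transporter of thalamic, hypothalamic and other subcortical neurons, read 8.91 and 9.02 in the controls and 9.33, 9.74 and 9.38 in the treated mice, a difference of 0.52 ± 0.12 (SE). Calb2, calretinin, read 8.24 and 8.57 against 8.65, 9.06 and 8.88. Both had groups without overlap and their highest value in 1-day mouse 2. Gbx2, a transcription factor of the developing thalamus, Amotl1 on 1 of its probes and Zfhx3 on 1 of its probes also had an unadjusted p under 0.05, with differences of 0.22, 0.23 and 0.17. That makes 5 of 20 higher and 0 of 20 lower, against 2.02% and 1.62% of all probes. Prkcd, a kinase abundant in thalamic relay neurons, read 9.22 and 9.63 against 9.49, 10.28 and 9.42, so its difference of 0.31 came with overlap, and it was 0.033 without mouse 2 and 0.10 without control 1. Ramp3, a receptor-modifying protein, read 8.59 and 8.85 against 8.76, 9.29 and 7.66, the lowest value in mouse 3. The median of the list was 0.04 without mouse 2, 0.07 without mouse 1 and -0.02 with the local background column.

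Striatal genes had lower means after 1 day, mostly through 1 mouse. All 17 probes of the striatal list had a lower mean after 1 day, against 50.3% of all probes, and the median difference was -0.28. Ppp1r1b, the dopamine-regulated phosphatase inhibitor DARPP-32, read 11.78 and 11.39 in the controls and 11.60, 10.32 and 11.02 in the treated mice. Penk, the enkephalin precursor, read 12.38 and 11.66 against 12.40, 10.67 and 11.48. In both genes mouse 2 was far below the rest and mouse 1 was as high as the controls. The median deviation of the list from the control mean was 0.13 in mouse 1, -0.82 in mouse 2 and -0.20 in mouse 3, against 0.14 and -0.14 in the 2 controls. Without mouse 2 the median difference was -0.04, and those of Ppp1r1b and Penk went from -0.61 and -0.50 to -0.28 and -0.08. Without control 1 the median was -0.15. Scn4b, a sodium channel subunit, was the 1 probe of 17 without overlap, at 6.51 and 6.52 against 6.39, 6.25 and 6.45. The dopamine receptors Drd1 and Drd2 differed by -0.34 and -0.23, with overlap, and the lowest value of each in mouse 2. Without mouse 2 they differed by -0.06 and 0.07, and with the local background column Drd2 differed by 0.66. In bulk tissue fewer cells of a type and less RNA per cell cannot be told apart, and the part of dissection in these values was not tested.

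**Figure D3:**
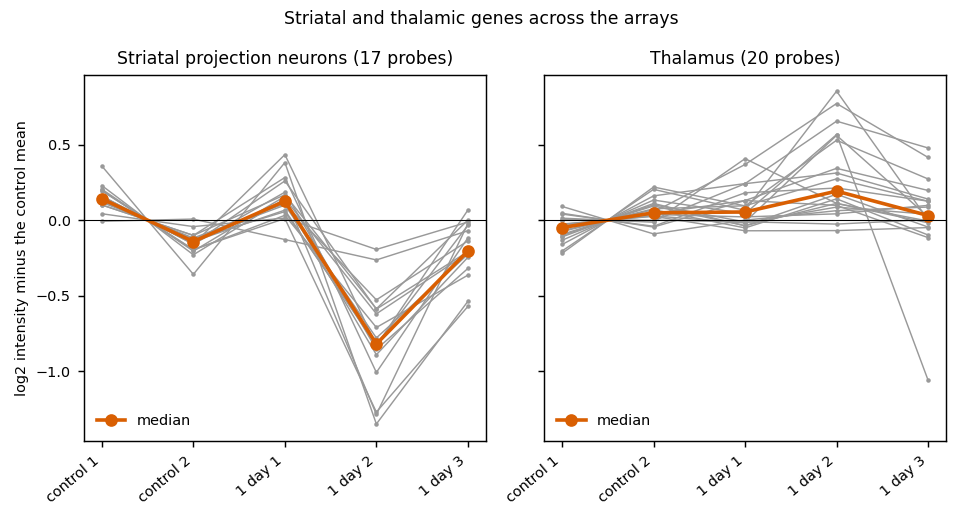
Each grey line is 1 probe of the striatal list (left, 17 probes) or the thalamic list (right, 20 probes), drawn across the 2 control and 3 treated arrays as log2 intensity minus the control mean, and the orange line is the list's median. The striatal median drops to -0.82 in 1-day mouse 2 while the thalamic median is highest there, at 0.19, and the line that falls far below the others in 1-day mouse 3 is Ramp3.

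Other regional lists varied with the same mice. The choroid plexus and ependyma, which make and move the cerebrospinal fluid, had 12 of 13 probes higher with a median of 0.12, which was -0.0044 without mouse 2 and 0.02 without control 1. Their most abundant transcript, Ttr, read 14.62 and 14.85 in the controls and 14.55, 14.99 and 14.62 in the treated mice and did not separate the groups. Aqp1, the water channel of the choroid plexus, read 6.57 and 6.59 against 6.70, 6.87 and 6.76, and Foxj1, the ciliary transcription factor, differed by 0.16; both had groups without overlap. Monoamine neuron genes were higher in 7 of 9 probes with a median of 0.19, which was 0.05 without control 1. Among them Th, the first enzyme of dopamine synthesis, read 6.39 and 6.84 against 6.68, 7.08 and 7.21, and Slc18a2, the vesicular monoamine transporter, 6.44 and 7.00 against 6.80, 7.30 and 7.47. These overlapped, with mouse 1 between the controls, and without control 1 their differences went from 0.38 and 0.47 to 0.15 and 0.18. Maoa, which degrades monoamines, was the 1 probe of the 9 with an unadjusted p under 0.05, at 8.12 and 8.03 against 8.32, 8.29 and 8.18.

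Cortical projection neuron genes were lower in 15 of 18 probes, with a median of -0.06 that stayed between -0.11 and -0.04 under each of the 21 other settings. Mef2c, an activity-dependent transcription factor of cortical neurons, read 10.71 and 10.68 in the controls and 10.50, 10.44 and 10.25 in the treated mice, a difference of -0.30 ± 0.10 (SE), and was the 1 of 18 with an unadjusted p under 0.05. Mef2c was also among the 12 lower genes with the largest differences, which held Pde2a, Bcl11a, Rgs4, Chn1, Dclk1, Nos1ap, Olfr1412, Glipr1l2, B3galt1, Nmt1 and Nup153 besides. Pde2a, a cyclic nucleotide phosphodiesterase, read 10.65 and 10.64 against 10.47, 10.20 and 10.09. Bcl11a, a transcription factor of cortical neurons, read 10.05 and 10.07 against 9.83, 9.73 and 9.51. Rgs4, a brake on G protein signalling, read 11.60 and 11.61 against 11.40, 11.26 and 11.25. At Pde2a, Bcl11a and Rgs4 the 2 controls agreed closely and the treated mice lay below them by unequal amounts. Chn1, a Rac-directed GTPase activator of growth cones, Dclk1, a microtubule-associated kinase, and Nos1ap, an adaptor of neuronal nitric oxide synthase, differed by -0.35, -0.32 and -0.30 on their lowest probe. The other probes of Dclk1 and Nos1ap differed by -0.10 and 0.13. B3galt1 differed by -0.35 on the probe among the 12 and by -0.04 on its other probe.

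**Figure D4:**
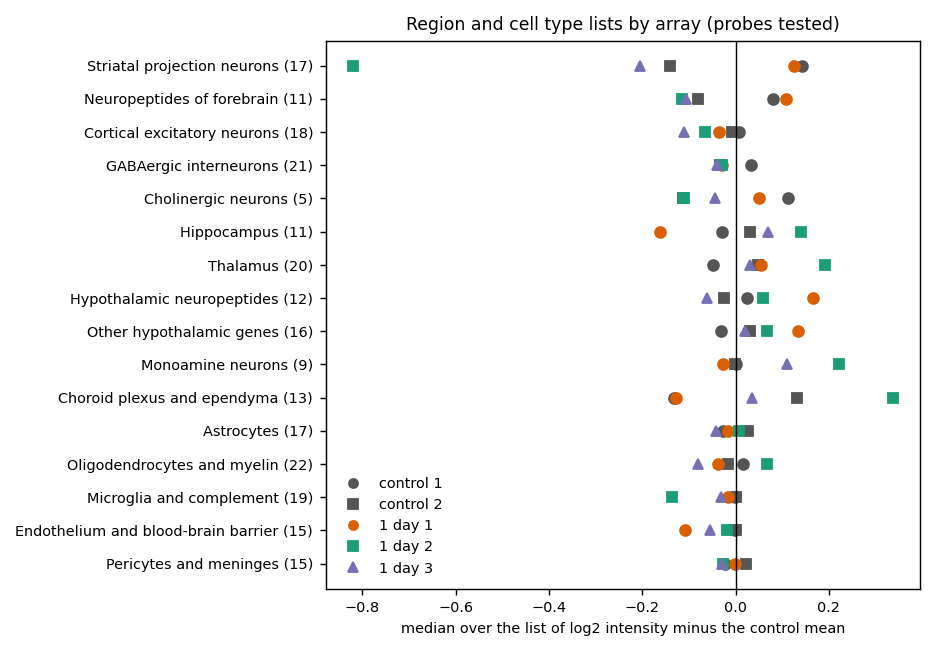
Each row is a list of region or cell type genes with its number of tested probes, and each point is the median over the list, in 1 array, of log2 intensity minus the control mean. Points of 1-day mouse 2 lie lowest for the striatum and highest for the choroid plexus and thalamus, while the endothelial and microglial points of the treated mice lie below those of the controls.

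GABAergic interneuron genes were lower in 15 of 21 probes with a median of -0.03. The highest difference of that list was at Calb2, 0.46, the 1 higher probe of the 21 with an unadjusted p under 0.05. Gad2, a GABA-synthesising enzyme, read 10.01 and 9.75 against 9.78, 9.56 and 9.57 on the probe with the lower p, and its difference went from -0.25 to -0.11 without control 1. Among cholinergic genes 4 of 5 were lower, and Ache, the enzyme that splits acetylcholine, was the exception. It read 7.73 and 7.81 in the controls and 7.99, 8.14 and 8.07 in the treated mice, without overlap and with a difference of 0.30 ± 0.06 (SE). Chat, which makes acetylcholine, read 7.05 and 6.80 against 6.98, 6.72 and 6.86. Synaptic vesicle genes were evenly split at 8 higher and 9 lower, and postsynaptic density genes were lower in 13 of 19 probes with no unadjusted p under 0.05.

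Among glial and vascular genes the list medians were small, while single genes differed more. Microglial and complement genes were lower in 14 of 19 probes with a median of -0.05, and 5 of the 19 lay below the controls in every treated mouse while 0 lay above, against 9.19% and 8.97% of all probes. C1qc, a chain of the first complement component, read 9.27 and 9.14 in the controls and 9.00, 8.98 and 8.98 in the treated mice, a difference of -0.22 ± 0.06 (SE). Tmem119 and P2ry13, of resting microglia, differed by -0.10 and -0.20 with overlap. Endothelial genes were lower in 13 of 15 probes with a median of -0.06 and no unadjusted p under 0.05. The medians of both lists kept their sign under each of the 21 other settings. Astrocyte genes were lower in 11 of 17 probes, and the list's median of -0.04 turned to 0.04 without control 2 and was 0.04 with the local background column. Slc1a3, a glutamate transporter of astrocytes, read 10.84 and 10.76 against 10.65, 10.56 and 10.68, and Gfap, which reactive astrocytes raise, 6.17 and 6.26 against 6.23, 6.37 and 6.30. Myelin genes were split at 10 higher and 12 lower, and Aspa, an oligodendrocyte deacetylase, differed by 0.15. Sparc, a matrix glycoprotein of vessels and glia, read 10.38 and 10.70 against 10.85, 11.19 and 11.18, a difference of 0.53 ± 0.15 (SE), and Dcn, of the meninges, 7.74 and 7.87 against 7.93, 8.30 and 7.99.

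Blood and liver transcripts varied widely from mouse to mouse. Hba-a2, an alpha-globin gene of red cells, read 10.21 and 8.48 in the controls and 11.27, 10.53 and 9.74 in the treated mice. Hbb-bs, a beta-globin gene, read 10.19 and 8.84 against 11.01, 10.35 and 9.98. The groups overlapped at each, and the globin genes ranked the 5 arrays alike, with control 2 lowest. The other globins Hbb-bt and Hbb-b2 had smaller differences, 0.83 and 0.75. Without control 2 the differences of Hba-a2, Hbb-bs, Hbb-bt and Hbb-b2 were 0.30, 0.26, 0.23 and 0.16, and without control 1 they were 2.03, 1.60, 1.43 and 1.34. In all 0 of the 6 erythroid probes had an unadjusted p under 0.05. At 10 days Hba-a2 spanned 8.13 to 11.48 within 1 group.

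Liver genes were high in control 1. Alb, albumin, read 8.03 in control 1, 6.18 in control 2 and 6.00, 6.17 and 7.09 in the treated mice. Mup2, a major urinary protein, read 8.35 and 6.15 against 5.87, 6.08 and 7.64. Control 1 and 1-day mouse 3 were high together at both, and at 10 days mouse 2, with an Alb of 7.11, was the highest of its group. A list of 26 liver genes, drawn up after these values had been seen, had 20 of 23 probes lower with a median of -0.15, which turned to 0.04 without control 1. The median of the 3 major urinary protein probes turned from -0.66 to 0.38. None of the 23 had an unadjusted p under 0.05. The source of these transcripts was not tested.

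**Figure D5:**
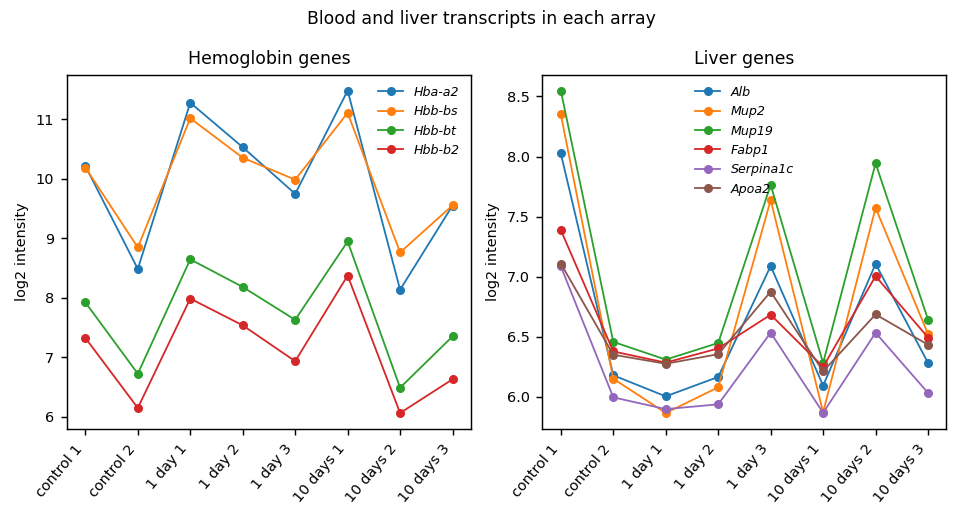
Lines join the log2 intensity of 4 globin genes (left) and 6 liver genes (right) over the 8 arrays of the series, in the order control, 1 day and 10 days. The globin lines run in parallel and dip in control 2 and in 10-day mouse 2, and the liver lines peak in control 1, 1-day mouse 3 and 10-day mouse 2.

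Genes that split trehalose or carry sugar differed little between the groups. Treh, trehalase, read 5.97 and 5.91 in the controls and 5.94, 6.00 and 5.91 in the treated mice, near the floor of the array. Slc2a8, a transporter that carries trehalose into liver cells, read 7.30 and 7.36 against 7.34, 7.32 and 7.34. Slc2a1, the glucose transporter of the blood-brain barrier, read 8.47 and 8.93 against 8.53, 8.83 and 8.73, and Slc2a3, that of neurons, 9.99 and 10.20 against 10.12, 9.81 and 10.11. The list of 14 genes and 15 probes had 0 with an unadjusted p under 0.05. Differences ran from -0.10 for Slc2a9 to 0.11 for Slc5a1, the intestinal sodium-glucose transporter.

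In energy metabolism single genes separated the groups by small amounts. Hk1, the brain hexokinase, read 8.24 and 8.19 in the controls and 8.10, 8.13 and 8.08 in the treated mice, and it was the 1 of 18 glycolytic probes with an unadjusted p under 0.05. Pygl, a glycogen phosphorylase, differed by 0.12. In fatty acid and ketone oxidation Acat1 read 10.33 and 10.43 against 10.52, 10.53 and 10.48 and Acadm, a medium-chain dehydrogenase, 9.48 and 9.43 against 9.58, 9.66 and 9.57. These 2 of 15 were higher and 0 of 15 lower at that threshold, against 2.02% and 1.62% of all probes. Scd2, the main stearoyl-CoA desaturase of brain, read 12.27 and 12.21 against 12.41, 12.42 and 12.48, without overlap and with a difference of 0.20 ± 0.04 (SE). In cholesterol synthesis Cyp51 and Dhcr7 differed by 0.17 and 0.12 while Srebf2, which encodes the transcription factor that drives the pathway, differed by -0.15. The TCA cycle had 12 of 20 higher and the ATP synthase 4 of 17, neither with an unadjusted p under 0.05. The ATP synthase median of -0.05 kept its sign under each of the 21 other settings. Cox5a and Cox7b of cytochrome c oxidase differed by 0.16 and 0.18, and Ndufs6 of complex I by -0.17.

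Autophagy genes lay on both sides. Of 41 probes 19 were higher and 22 lower, with a median of -0.01, and Nbr1, an autophagy receptor, was the 1 with an unadjusted p under 0.05, at 8.38 and 8.30 in the controls and 8.25, 8.25 and 8.15 in the treated mice. Map1lc3a, which coats autophagosomes, read 11.35 and 11.42 against 11.31, 11.26 and 11.01. Its relative Map1lc3b read 10.15 and 10.38 against 10.22, 10.15 and 10.31. Sqstm1, the receptor p62, read 11.13 and 11.17 against 11.29, 11.24 and 10.99, so that mouse 3 was below and mice 1 and 2 above both controls. Differences were 0.08 for Atg5, 0.05 for Atg7, -0.04 for Ulk1 and 0.02 and -0.12 for the probes of Becn1. Tfeb itself differed by -0.02 ± 0.06 (SE).

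Lysosomal genes were split evenly, 18 of 36 probes higher, with 2 higher and 4 lower at an unadjusted p under 0.05, against 2.02% and 1.62% of all probes. Gaa, the acid alpha-glucosidase that breaks down glycogen in lysosomes, read 10.51 and 10.59 in the controls and 10.72, 10.85 and 10.88 in the treated mice, a difference of 0.27 ± 0.06 (SE). Npc2, which hands cholesterol out of the lysosome, read 9.63 and 9.54 against 9.72, 9.71 and 9.75. The 4 lower ones act in the breakdown of proteins and sphingolipids. The peptidase Tpp1 read 8.79 and 8.89 against 8.66, 8.69 and 8.57, and the ceramidase Asah1 9.17 and 9.16 against 8.99, 9.10 and 8.92. Psap, the precursor of the saposins, differed by -0.27 and the cathepsin Ctsz by -0.17. None of the 6 overlapped between the groups. Ctsb, Ctsd, Lamp1 and Lamp2, abundant lysosomal proteins, differed by -0.07 to 0.05. In the proton pump of the lysosome Atp6v1g1 and Atp6v1c1 differed by 0.26 and 0.18, and 12 of its 20 probes were lower.

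Of the kinases that sense nutrients, 17 of 22 mTORC1 and AMPK probes were lower, with a median of -0.02 that turned to 0.01 without control 2. Prkaa1, a catalytic subunit of AMPK, was on the higher side, at 6.67 and 6.82 against 6.85, 6.93 and 6.92, and was the 1 with an unadjusted p under 0.05. In the insulin and PI3K list 11 of 17 were lower, with a median of -0.06, which was -0.03 without mouse 2 and 0.02 with the local background column. Gsk3b read 8.70 and 8.67 against 8.51, 8.55 and 8.33, and Akt1, the kinase that phosphorylates its product, 9.42 and 9.34 against 9.27, 9.31 and 9.12. Both had groups without overlap and their lowest value in mouse 3.

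Chaperones of the heat shock response were higher in 20 of 29 probes, with a median of 0.04 that stayed above 0 under each of the 21 other settings. All treated arrays lay above both controls for 6 of the 29 and below them for 0, against 8.97% and 9.19% of all probes. Hsp90aa1, the inducible cytosolic HSP90, read 13.38 and 13.42 in the controls and 13.56, 13.58 and 13.61 in the treated mice. Its cochaperone Fkbp4 read 10.09 and 10.24 against 10.27, 10.30 and 10.36, and Dnajb1, a stress-induced HSP40, 9.49 and 9.39 against 9.55, 9.60 and 9.69. These 3 had an unadjusted p under 0.05 and differed by 0.15 to 0.18. Other heat-inducible genes had smaller differences, -0.05 for Hspa1a, -0.02 for Hspb1 and 0.02 for Bag3.

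In the endoplasmic reticulum the members went both ways. Hsp90b1, the HSP90 of that compartment, read 11.48 and 11.42 against 11.73, 11.74 and 11.60, a difference of 0.24 ± 0.09 (SE). Pdia6, a disulfide isomerase, read 10.33 and 10.38 against 10.15, 10.16 and 10.08, a difference of -0.23 ± 0.05 (SE). The unfolded protein response list had 15 of 27 higher, and Hspa5, its main chaperone, read 11.15 and 11.18 against 11.19, 11.25 and 11.55. Subunits that take nascent proteins into the compartment and cut their signal peptides were higher in 7 of 12 probes of a list added after values had been seen. Sec61b read 9.39 and 9.35 against 9.50, 9.75 and 9.79, Spcs1 9.89 and 9.87 against 10.14, 10.12 and 10.11, and Sec11c 10.38 and 10.29 against 10.52, 10.63 and 10.59. Scg2, a granin of secretory granules, read 10.06 and 10.08 against 10.27, 10.32 and 10.45. The groups did not overlap at these 4.

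Among genes of protein synthesis and turnover, the named members of the proteasome and of the mitochondrial ribosome lay on both sides. Psmd12 of the proteasome lid read 9.30 and 9.45 against 9.56, 9.65 and 9.64, and Psmd14, the lid's deubiquitinase, 10.21 and 10.20 against 10.04, 10.09 and 9.91. Iars, the isoleucyl-tRNA synthetase, differed by 0.24 and Tars, the threonyl one, by 0.17, among 17 of 33 synthetase probes that were higher. Mrpl16 and Mrpl17 of the mitochondrial ribosome differed by -0.20 and -0.18 and Mrpl32 by 0.17, while 44 of 81 probes of that family were higher. At an unadjusted p under 0.05, 6 of the 81 were higher and 2 lower, against 2.02% and 1.62% of all probes. The highest difference in that family was 0.28. Cytosolic ribosomal proteins had 40 of 68 higher, a median of 0.01 and 0 with an unadjusted p under 0.05. In the ATF4 list, of amino acid supply, Shmt2 differed by -0.13 and Slc3a2 by 0.17.

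Among genes that follow neuronal activity 2 of 19 probes lay above both controls in every treated mouse and 0 below. The counts were 2 and 2 of 19 for the clock and 0 and 1 of 16 for stress hormones. The shares of all probes were 8.97% and 9.19%. Egr1, an immediate early transcription factor, read 10.81 and 10.43 in the controls and 10.73, 10.96 and 11.03 in the treated mice, and Fos 8.26 and 7.92 against 8.41, 8.37 and 8.17. Both overlapped, and without control 2 the difference of Egr1 went from 0.29 to 0.10 and that of Fos from 0.23 to 0.06. Egr2 read 6.98 and 6.94 against 7.03, 7.09 and 7.08, without overlap. Cry2, a repressor of the circadian loop, read 9.69 and 9.67 against 9.51, 9.54 and 9.43, a difference of -0.19 ± 0.06 (SE), and was the 1 of 19 clock probes with an unadjusted p under 0.05. Klf9, a glucocorticoid target, differed by -0.13, and 0 of 16 glucocorticoid probes had such a p.

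Receptor and channel families are described here by single members and by directions. Of 88 potassium channel probes 7 lay above both controls in every treated mouse and 8 below, near the 8.97% and 9.19% of all probes. For 27 calcium channel probes the counts were 1 and 4, and for 20 serotonin and dopamine receptor probes 4 and 1. Drd5, a dopamine receptor, read 6.32 and 6.49 in the controls and 6.67, 6.75 and 6.74 in the treated mice, a difference of 0.31 ± 0.07 (SE). Kcna1, a potassium channel of axons, read 10.90 and 10.95 against 10.79, 10.79 and 10.71, and was the 1 of 88 potassium channel probes with an unadjusted p under 0.05. Sodium channel subunits were lower in 12 of 14 probes with a median of -0.04, which was 0.005 with the local background column. Glutamate and GABA receptor subunits were split at 14 higher and 15 lower and at 10 higher and 9 lower. Olfactory receptors, mostly silent in brain, were split at 346 higher and 350 lower of 696 probes. Among them Olfr1412 read 8.53 and 8.04 against 7.59, 7.59 and 7.71, and its difference of -0.65 ± 0.17 (SE) was the largest lower one of a named gene without overlap. Glipr1l2 followed, at 9.65 and 9.84 against 8.97, 9.55 and 8.96.

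The lowest unadjusted p of the comparison, 0.000104 by limma, belonged to Pcbd1, which recycles the cofactor of aromatic amino acid hydroxylases and was singled out after its value was seen. It read 7.58 and 7.58 in the controls and 7.85, 7.90 and 7.83 in the treated mice, and its difference was 0.28 ± 0.04 (SE). Mmp17, a membrane-bound metalloproteinase singled out in the same way, read 9.40 and 9.47 against 9.19, 9.18 and 9.21. Med27, a subunit of the Mediator of transcription, read 8.79 and 8.77 against 9.08, 9.18 and 9.15, and Dynlt1f, a dynein light chain, 9.18 and 9.21 against 9.40, 9.62 and 9.63. At Pcbd1, Mmp17 and Med27 the gap between the groups was wider than the range within either group. Genes with several probes allow a further look. Of 1179 such genes 572 had probes of opposite sign, and at 2 genes every probe had an unadjusted p under 0.05. Clk3, a splicing kinase, was higher on both probes, by 0.18 and 0.19, and Pitpnc1, a lipid transfer protein, differed by 0.14 on 1 probe and -0.12 on the other.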

How the data were processed

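RNA of 8 mouse brains was hybridised to 8 one-colour arrays with Cy5-labelled amplified RNA, per the labels' protocols. The deposited files hold a spot intensity, the median of the pixels of a spot read at 3 gains, and a local background intensity, per the file headers; scanner software is not given in the sources used here. The authors' processed table, also deposited, gives an intensity per probe that was found to be a straight line of the spot medians with a median near 25.0, and was used only as an alternative.

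Spot intensities were background corrected in limma 3.58.1 (R 4.3.3) by normexp with an offset of 50, which compresses differences of dim probes, quantile normalized and log2 transformed. The local background was not subtracted, since its log intensity followed that of the spots with a correlation of 0.936 to 0.983 per array. Failed-flag spots (0 to 3 per array) were set to missing. All 8 arrays, including the 3 of the 10-day group, entered 1 limma fit of 3 groups with 5 residual degrees of freedom, and the contrast 1 day minus control was moderated by eBayes with Benjamini-Hochberg adjustment over 21583 probes. Procedures were tested on simulated data. Probes of a gene were kept apart. The platform annotation gave 1 symbol to 20690 probes and none to 2783.

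The lists, the members and the rule for named genes were chosen with earlier results of these data known, and 3 lists were added after values were seen. The rule took the 12 largest differences in each direction among named probes with unadjusted p under 0.05 and no overlap. From each list it took the 2 lowest p and the extremes. It also took a fixed set of sugar, autophagy, lysosome and chaperone genes. The text does not name every gene the rule took. Disp2, higher by 0.37, appears only in the plot of the 12 largest differences in each direction. Several list extremes are also left unnamed. Among them are the highest of glycolysis at 0.25, of pentose phosphate at 0.26 and of complex I at 0.24. The lowest potassium channel, at -0.35, is another. Numbered gene models and unnamed probes were only counted. Alternatives changed the background correction, scaling, filter, variance model, array weights, probe choice and source of values, and left out each array in turn. Scan date and slide were not available as batches in the sources used here. The number of arrays limits the precision.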

Additional observations from a re-analysis of the deposited data

Results flagged for a closer look

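Pitpnc1, a lipid transfer protein, lay on opposite sides of the controls at the 2 times on 1 of its probes. It read 8.41 and 8.45 in the controls, 8.32, 8.37 and 8.24 after 1 day, a log2 difference of -0.121, and was above both controls in all 3 mice after 10 days, with a difference of 0.0759. The difference between the times was not tested, and both share the same 2 controls.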

How the results depend on the processing

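The number of probes past an adjusted p of 0.05 was 0 in 20 of the 21 other settings. The exception was the setting without control 1, where 1 control array remained. At an unadjusted p under 0.05 the count was 787, against 1503 with the local background column (a setting chosen after the data were seen), 493 in the authors' processed table and 491 to 1015 with each array left out in turn. The count of probes whose groups do not overlap was 3920, and 6209 to 11128 with each array left out, where fewer arrays make separation easier. The share of higher probes among those at an unadjusted p under 0.05 was 55.5%, against 77.6% with median scaling, 64.5% with scaling to the 75th percentile and 17.2% in the authors' table, whose median difference over all probes was -0.05. With only the 5 compared arrays in the fit the share was 49.1%, of 1014 probes. With the replicate number as a block 0 probes passed and 930 had an unadjusted p under 0.05. Deviations of same-numbered arrays of the compared groups correlated at 0.263 and 0.19, over only 2 numbers. Same-numbered pairs with a 10-day array correlated at -0.02 to 0.24, and differently numbered pairs between groups at -0.31 to 0.21. The 2 controls deviate from their mean by equal and opposite amounts. Each correlation with control 1 therefore returns with the opposite sign for control 2, so part of the contrast between these pairs is built in. The labels do not say that the numbers pair mice, so the main fit did not use them. What the numbers share was not tested.

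With the local background column the log2 difference changed sign at these named probes: Acat1 -0.76, Amotl1 -0.23, Chn1 0.15, Cox5a -2.20, Cox7b -1.05, Ctsz 0.020, Dnajb1 -0.028, Egr2 -0.023, Iars -0.083, Kcna1 0.00083, Mmp17 0.26, Mrpl17 0.10, Nbr1 0.12, Nmt1 0.11, Nnat -0.27, Nos1ap 0.58, Pitpnc1 -0.068, Scd2 -0.42, Sec11c -0.65, Shmt2 0.0056, Slc17a6 -0.58, Slc1a3 0.019, Slc3a2 -0.084, Spcs1 -0.70, Srebf2 0.40 and Zfhx3 -0.0082. The cause was not tested.

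The controls were 2 mice, and 8 arrays set the variance. At the 5396 brightest probes the median 95% interval reached 0.19 to each side, and at the 5396 dimmest 0.09, where the offset compresses differences.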

Other observations

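Several smaller groups held single genes whose arrays did not overlap between control and treated mice. Among interferon-induced genes 11 of 19 probes were higher. Irf9, a transcription factor of interferon signalling, read 6.68 and 6.71 in the controls and 6.81, 6.93 and 6.85 in the treated mice. Tlr2, a receptor for bacterial lipoproteins, was the 1 of 12 inflammation probes with an unadjusted p under 0.05 by limma. It read 5.93 and 5.90 in the controls and 6.03, 6.04 and 6.01 in the treated mice, near the floor of the array. Its difference of 0.11 ran from 0.05 to 0.81 over the other settings. Antioxidant genes were higher in 13 of 19 probes with a median difference of 0.03 on the log2 scale and 0 with such a p, and the thioredoxin gene Txn1 differed by 0.18. Ntrk2, the receptor of the neurotrophin BDNF, read 8.74 and 8.72 in the controls and 8.68, 8.58 and 8.57 in the treated mice. Bdnf itself read 7.49 and 7.83 in the controls and 7.49, 8.01 and 8.24 in the treated mice, with overlap, and its difference went from 0.26 to 0.09 without control 1 or without 1-day mouse 3. Grin2a, an NMDA receptor subunit, differed by -0.12, and Cacnb1, a calcium channel subunit, by -0.16.

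Genes linked to protein aggregation in neurodegeneration were lower in 11 of 17 probes with a median of -0.04. That median was 0.011 without control 2, 0.0037 without 1-day mouse 3 and 0.047 with the local background column. In that list Bace1, the beta-secretase, differed by -0.05 and -0.16 at its 2 probes, with overlap at both. Mapt, the tau gene, read 11.77 and 11.84 in the controls and 11.75, 11.71 and 11.76 in the treated mice. Hippocampal genes were higher in 8 of 11 probes with a median of 0.04, which was -0.02 without control 1, -0.03 without 1-day mouse 2 and -0.02 with the local background column. Cerebellar genes were split at 4 higher and 5 lower. Protocadherins, neuronal adhesion proteins, were lower in 33 of 53 probes. Pcdhb16 read 7.24 and 7.24 in the controls and 7.36, 7.36 and 7.56 in the treated mice, and Pcdhb17 read 7.37 and 7.42 in the controls and 7.22, 7.21 and 7.21 in the treated mice. Zinc finger genes of the Zfp series had 7 higher and 1 lower of 342 probes at an unadjusted p under 0.05. The higher share was near the 2.02% of all probes, and the lower share was below the 1.62% of all probes.

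The 10-day mice, measured against the same 2 controls, gave these values for genes with large differences at 1 day. Sparc read 10.57, 10.87 and 10.93 after 10 days, and the lowest of these lay between the controls. Slc17a6 read 9.37, 9.23 and 9.34 and Resp18 10.85, 10.78 and 10.84, above both controls. Med27 read 9.19, 9.17 and 9.01, and Pcbd1 had a 10-day mean of 7.72 against 7.58 in the controls. Mef2c read 10.77, 10.72 and 10.46, where mice 1 and 2 lay above both controls. Pde2a read 10.45, 10.38 and 10.61 and Rgs4 11.11, 11.52 and 11.52, below both controls.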
